A study of Mus musculus with 6 samples.

Results

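The 2 mature arms of the mouse miR-574 hairpin, mmu-miR-574-5p and mmu-miR-574-3p (from here on miR-574-5p and miR-574-3p), were followed on every array of the series. They were chosen by name, as the arms of 1 hairpin of which the 3p arm lay at the floor in 2D culture while the 5p arm was detected there, and they are 2 of the 576 miRNAs on the array. The choice rested on the same signals, detection flags and arm ratio that are given here, so the difference between the cultures is a description of these arms and carries no test. The cells were LLC1, an established line from a mouse Lewis lung carcinoma, kept in the same serum-containing medium in both cultures. In 2D culture they grew as a monolayer on plastic for 48 h, and in lr-ECM 3D culture they grew for 48 h in a laminin-rich extracellular matrix at 0.5 mg/ml above a layer of agarose. Each culture gave 3 independent replicates with 1 Cy3-labelled, 1-colour miRNA array each, and the series compared the cultures to learn which miRNAs follow the change of microenvironment. The RNA came from whole cultures, so more RNA per cell and a larger share of expressing cells cannot be told apart. A miRNA array holds no lineage markers, so the identity of the line was not checked here.

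MiRNAs are cut from a hairpin transcript whose stem yields a duplex of its 5p and 3p strands. Usually 1 strand of the duplex is loaded into an Argonaute protein, where its seed pairs with target mRNAs, while the other strand is degraded, and which strand is kept can differ between hairpins and tissues. MiR-574-5p is a strand rich in G and U that is known to bind CELF1 (CUGBP1), a protein that recognises GU-rich RNA. MiR-574-3p is rich in C and A and is known to bind hnRNP L, a protein that recognises CA-rich RNA.

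The sequences show how the arms differ and where they lie in their shared precursor. Per RefSeq on GRCm38.p6, the Mir574 hairpin of 78 bases lies on the plus strand at chr5:64970318-64970395, inside the span of the protein-coding gene Fam114a1 on the same strand and also inside the listed span of Tlr6 on the opposite strand. MiR-574-5p takes chr5:64970328-64970350 and miR-574-3p takes chr5:64970364-64970385, with 13 bases between them. In the hairpin, capitals mark the mature arms. In each arm, capitals mark the seed, bases 2 to 8.
Mir574 hairpin: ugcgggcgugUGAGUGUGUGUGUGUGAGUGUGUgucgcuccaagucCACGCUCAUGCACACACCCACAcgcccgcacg
miR-574-5p: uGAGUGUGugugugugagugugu
miR-574-3p: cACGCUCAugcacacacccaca

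Of the 23 bases of miR-574-5p, 11 were G and 10 were U, and its longest strictly alternating stretch of G and U ran for 13 bases. Of the 22 bases of miR-574-3p, 11 were C and 7 were A, and its longest alternating stretch of C and A ran for 7 bases. The longest unbroken Watson-Crick pairing between the arms was 7 bases, a match of letters and not a predicted fold, shown in capitals in each arm. The same 7 letters recur further along the G and U stretch of the 5p arm, and only the first match is marked.
miR-574-5p, paired stretch: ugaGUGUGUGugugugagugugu
miR-574-3p, paired stretch: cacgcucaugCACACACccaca
The seeds were GAGUGUG for the 5p arm and ACGCUCA for the 3p arm. Among the 466 of 566 mouse miRNAs on the array that matched a RefSeq mature sequence by name, 0 others shared either seed, so among the matched miRNAs each arm was alone in its seed group.

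The arrays differed in brightness before scaling. The mean signal over miRNA probes, in linear units after background subtraction, ran from 5.03 on 2D replicate 2 to 40.4 on 2D replicate 3, and from 37.8 to 49.9 on the lr-ECM 3D arrays. The 2D arrays detected 48 to 101 mouse miRNAs each and the lr-ECM 3D arrays 120 to 151 each. The part of these differences in the results on miR-574 was not tested. Each culture had a slide and a scan day of its own, so culture and slide cannot be told apart. With 3 arrays per culture, the precision of each value is limited by that number.

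MiR-574-3p was below the detection limit on all 2D arrays and was detected by every spot on all lr-ECM 3D arrays. The array carries 4 probes for this arm with 5 spots each, which gave 60 spots in each culture. In 2D, 0 of the 60 spots were well above background by the scanner software, against 60 of 60 in lr-ECM 3D. On 2D replicates 1, 2 and 3 the brightest probe, A_54_P3159, had mean unscaled signals of -6.50, -7.45 and -2.74 linear units, all below 0. In lr-ECM 3D the same probe read 368, 236 and 263 on replicates 1, 2 and 3. The other 3 probes read between -10.5 and -4.29 in 2D and between 170.2 and 310 in lr-ECM 3D. Thus all 4 probes separated the cultures without overlap. The single spots ran from -26.5 to 3.72 in 2D, below the mean of the negative control spots on those arrays, which lay between 7.37 and 8.02, and from 129 to 440 in lr-ECM 3D, where the negative controls averaged 4.52 to 5.35. 

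**Figure D1:**
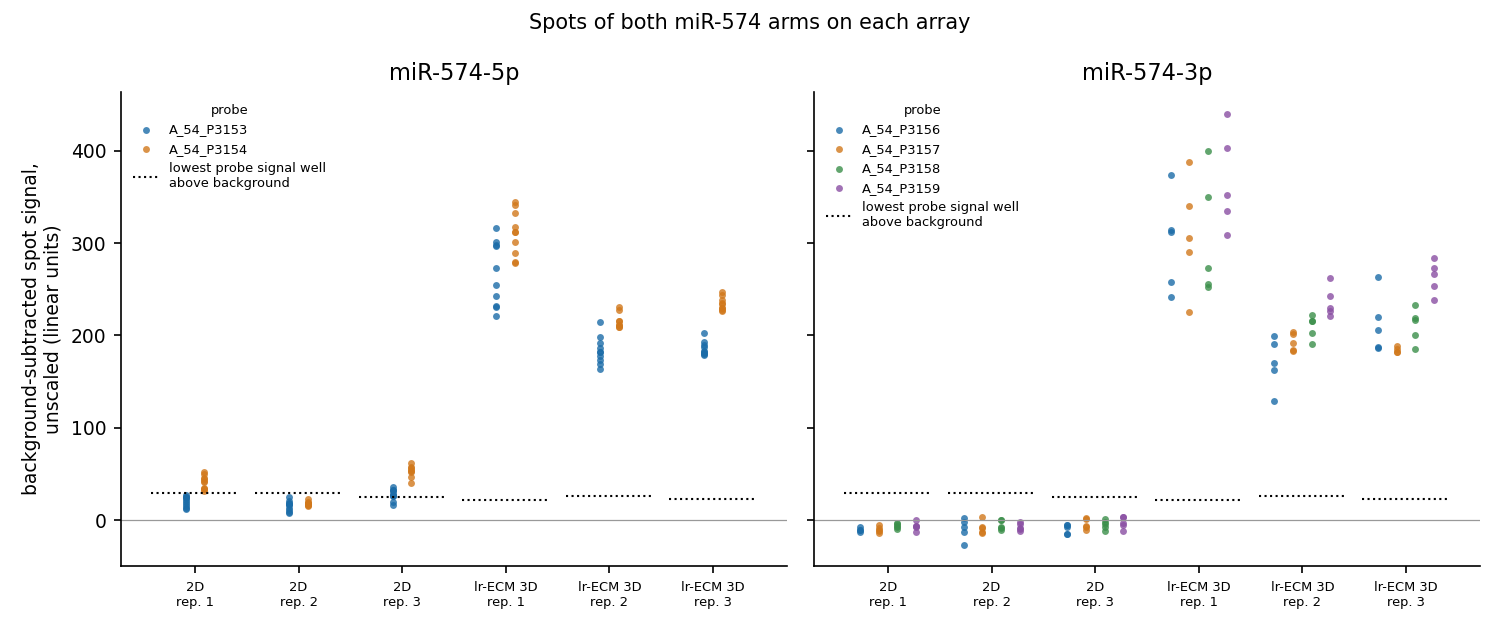
Background-subtracted, unscaled signal in linear units of each spot (points) of the 2 probes of miR-574-5p and the 4 probes of miR-574-3p on the 6 arrays, with outlier spots left out; dotted lines mark the lowest probe signal well above background on each array. The 3p spots sit around 0 on all 2D arrays and at 129 to 440 on the lr-ECM 3D arrays, whereas A_54_P3154 of the 5p arm is above the line on 2D replicates 1 and 3.

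After each array was scaled to the mean of the 2D arrays, miR-574-3p lay at the floor of 0 on the log2 scale on all 2D arrays. In lr-ECM 3D its log2 scaled signal was 7.36, 7.09 and 7.27 on replicates 1, 2 and 3, with a mean of 7.24 ± 0.14 (SD, n = 3). The difference of 7.24 on the log2 scale depends on the floor and is not a fold. Against the lowest scaled signal well above background on each 2D array, the 3p arm was at least 3.95-fold higher in lr-ECM 3D, a log2 bound of 1.98. Taken against single 2D arrays this bound was 4.89-fold, 1.16-fold and 10.8-fold for replicates 1, 2 and 3. On the dim 2D replicate 2 the limit was 7.02 on the log2 scale, just under the 7.09 to 7.36 measured for this arm in lr-ECM 3D, so that array could hardly bound it. Without 2D replicate 2 the log2 bound was 2.86, and without 2D replicate 3 it was 1.25. 

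MiR-574-5p was already detected in 2D culture and was brighter in lr-ECM 3D. The array carries 2 probes for this arm with 10 spots each. In 2D, 24 of 60 spots were well above background, against 60 of 60 in lr-ECM 3D. The brighter probe, A_54_P3154, had mean unscaled signals of 40.9, 18.0 and 52.8 linear units on 2D replicates 1, 2 and 3. In lr-ECM 3D it read 311, 216 and 235 in the same order. The second probe, A_54_P3153, read 19.9, 15.6 and 27.7 in 2D and 267, 184 and 186 in lr-ECM 3D. The lowest lr-ECM 3D signal of either probe was above its highest 2D signal. In 2D only A_54_P3154 was well above background, and only on replicates 1 and 3, so the detection of the 5p arm in 2D rests on 1 of its 2 probes and on 2 of 3 arrays.

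On the scaled log2 scale miR-574-5p read 5.41, 6.32 and 4.86 on 2D replicates 1, 2 and 3, with a mean of 5.53 ± 0.73 (SD, n = 3). In lr-ECM 3D it read 7.12, 6.96 and 7.11 on replicates 1, 2 and 3, with a mean of 7.06 ± 0.09 (SD, n = 3). All lr-ECM 3D arrays were above all 2D arrays. The highest 2D value came from the dim replicate 2, where the probe was not well above background and the scaling factor was 4.43. The detection limit of that array, 7.02, lay above the 6.96 of lr-ECM 3D replicate 2. The separation from that array thus rests on a signal below detection. The difference of the means was 1.53 on the log2 scale, with a standard error of 0.38 from the limma fit, or 2.89-fold. It was 2.46-fold with 2D replicate 2 set at its detection limit and 3.79-fold from 2D replicates 1 and 3 alone. The weaker 5p probe, A_54_P3153, differed by 2.00 on the log2 scale.

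**Figure D2:**
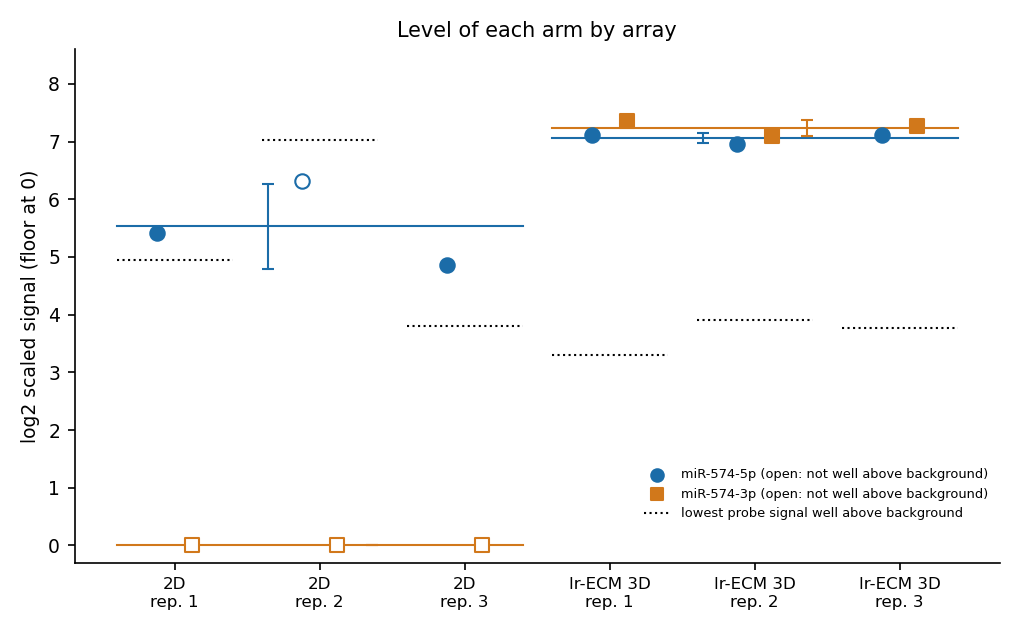
Log2 scaled signal (floor at 0) of the brightest probe of each arm on the 6 arrays, open where the probe was not well above background, with the mean of each culture (lines), its SD (bars, n = 3) and the lowest probe signal well above background on each array (dotted). Both arms lie between 6.96 and 7.36 in lr-ECM 3D, whereas in 2D the 3p arm is at the floor and the 5p arm between 4.86 and 6.32.

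Arrays of like brightness allowed the signals of both cultures to be set side by side without scaling. 2D replicate 3 had a mean miRNA probe signal of 40.4 linear units, and lr-ECM 3D replicates 2 and 3 had 38.7 and 37.8. Between these arrays the unscaled signal of miR-574-5p was 4.09-fold and 4.44-fold higher in lr-ECM 3D. For miR-574-3p the unscaled signal was at least 9.34-fold and 10.4-fold higher, relative to the detection limit of 2D replicate 3. The comparison rests on that single 2D array. Among the 2D arrays it had the lowest scaled 5p signal, 4.86 in log2, and the largest bound for the 3p arm, 10.8-fold.

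The software's own summary of each miRNA, the total gene signal, listed the same detections. For miR-574-3p it was listed at 0.1, the value for an undetected miRNA, on all 2D arrays and at 411, 268 and 293 linear units on the lr-ECM 3D arrays in replicate order. For miR-574-5p it was 40.4, 0.1 and 53.4 on the 2D replicates in the same order, against 370, 266 and 283 on the lr-ECM 3D arrays. In the deposited log2 table miR-574-5p read 5.42, 4.49 and 5.30 in 2D and 7.56, 7.33 and 7.50 in lr-ECM 3D. There 2D replicate 2 was the lowest 2D array, not the highest.

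To follow the balance of the arms, the signal of the 5p arm was divided by that of the 3p arm on the same array, which a factor applied to the whole array leaves unchanged. The arms have different probes, so the ratio compares signals and not amounts of RNA, and its difference between arrays is the quantity of interest. In lr-ECM 3D the 5p signal was 0.845, 0.915 and 0.892 times the 3p signal on replicates 1, 2 and 3. On 2D replicate 1 it was at least 1.38 times and on 2D replicate 3 at least 2.09 times the 3p signal, bounds that use the detection limit for the 3p arm. On 2D replicate 2 neither arm was detected, and no ratio was given. The cultures did not overlap on the arrays with a ratio. On the log2 scale the ratio averaged -0.18 ± 0.06 (SD, n = 3) in lr-ECM 3D and at least 0.76 in 2D (n = 2), so the ratio of 5p to 3p signal was at least 1.92 times as high in 2D. Over the 8 pairings of a 5p probe with a 3p probe, the ratio on single lr-ECM 3D arrays ran from 0.708 to 1.27, so which arm was brighter there depended on the probes. With the weaker 5p probe the direction in 2D was not settled either, since A_54_P3153 lay at 0.670 and 1.09 times the detection limit on 2D replicates 1 and 3.

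**Figure D3:**
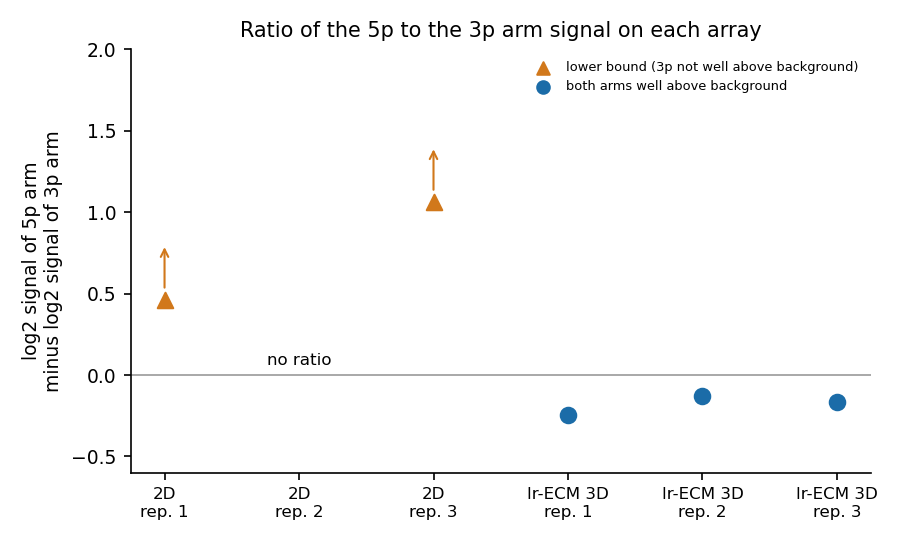
Log2 signal of the 5p arm minus log2 signal of the 3p arm on each array, from the brightest probe of each arm; triangles with arrows are lower bounds, circles are arrays with both arms well above background. The lr-ECM 3D arrays lie between -0.24 and -0.13 and the 2D bounds at 0.46 and 1.06.

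The arms were then set against the other miRNAs of the array. A limma fit took the 120 mouse miRNAs detected on all 3 arrays of 1 culture or both. Those with an adjusted p below 0.05 that also differed by 2-fold or more were called. All 120 were detected on all lr-ECM 3D arrays, and the 48 detected on all 2D arrays were among them. Both arms and all others beyond these 48 thus entered through lr-ECM 3D, and none entered through 2D alone. The counts over these miRNAs are shaped by that filter. Of the 120, 14 were called (11.7%), 13 of them higher in lr-ECM 3D (10.8%). MiR-574-3p was among these calls and miR-574-5p was not, a count of 1 of 2 from which nothing is read, since the arms were chosen on this contrast. Without 2D replicate 2 the calls numbered 32, and miR-574-5p was then called as well. Both arms were among the 24 miRNAs (20%) whose lr-ECM 3D arrays all lay above all 2D arrays, by scaled signals that include undetected ones in 2D. The median change of the 120 was -0.11 on the log2 scale, with 44 above 0 and 76 below. In all, 29 of the 120 were well above background on no 2D array, as was miR-574-3p, and 48 were well above background on all 6 arrays. All 13 calls higher in lr-ECM 3D were miRNAs well above background on no 2D array. Their calls thus rest on 2D signals below detection. For miR-574-3p these signals all lay at the floor, with an SD of 0.

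**Figure D4:**
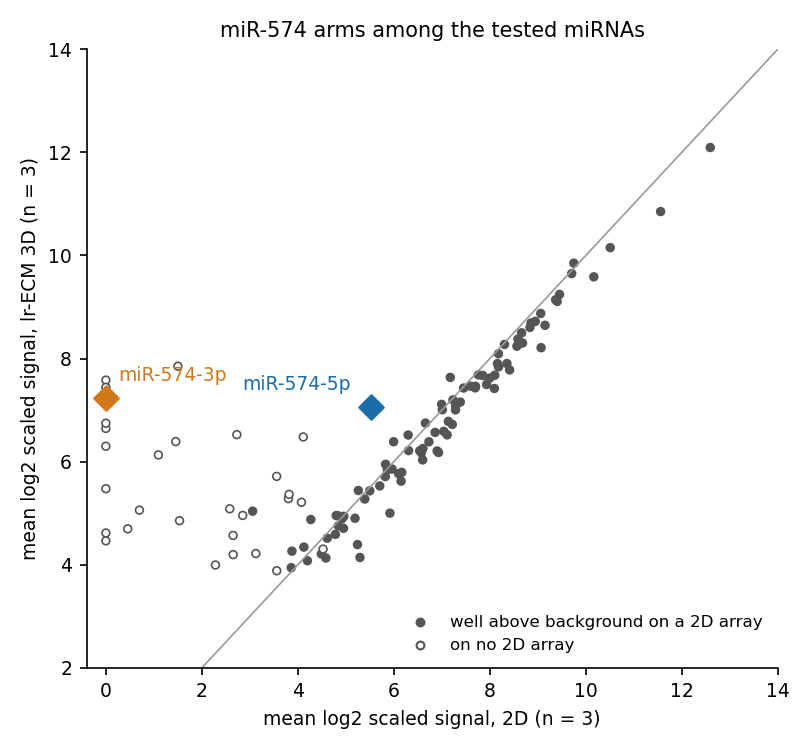
Mean log2 scaled signal in lr-ECM 3D against 2D (n = 3 each) for the 120 miRNAs fitted, open where the miRNA was well above background on no 2D array; the line marks equal signals. MiR-574-3p (7.24 against the floor of 0) lies with the open points at the left edge, and miR-574-5p (7.06 against 5.53) lies above the line among miRNAs detected in 2D.

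Each arm was then set beside the miRNAs whose log2 scaled signal followed it most closely over the 6 arrays, a description across arrays that share the split by culture. The 5 nearest to miR-574-3p were miR-467e-3p, miR-297a-3p, miR-466f-3p, miR-466g and miR-467d-3p, all with a Pearson correlation of 1.00 to 2 decimals. All of these were at the floor on all 2D arrays, so the correlation reflects the same split. Their mean log2 scaled signals in lr-ECM 3D ran from 5.48 for miR-297a-3p to 7.58 for miR-466f-3p, beside 7.24 for miR-574-3p. Their bounds on the fold ran from at least 1.16-fold for miR-297a-3p to at least 5.00-fold for miR-466f-3p, beside 3.95-fold for miR-574-3p. In all, 9 of the 120 miRNAs were at the floor on all 2D arrays, miR-574-3p, these 5, miR-466d-3p, miR-467b-3p and miR-485-3p.

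The 5 nearest to miR-574-5p were miR-877-3p and miR-207 with correlations of 0.98, miR-669n with 0.96, miR-468-3p with 0.95 and miR-197_v14.0 with 0.94, where the suffix belongs to the name on the array. None of these 5 was well above background on a 2D array, and so miR-574-5p differed from each of its nearest profiles in being detected there. Their mean log2 scaled signals in 2D ran from 1.09 for miR-207 to 4.11 for miR-669n, beside 5.53 for miR-574-5p. The arms themselves correlated at 0.87 over the 6 arrays.

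The difference between the arms was set beside other hairpins with both arms on the array. Of 147 such hairpins, 7 had both arms among the miRNAs fitted, 47 had 1 arm and 93 had none. In these 7 the arms' changes differed by a median of 0.36 on the log2 scale. Of the 7, miR-574 had the largest difference, -5.71 for 5p minus 3p, which depends on the floor under the 3p arm. By the bounds in the arm ratio it was -0.94 or lower, so its place before miR-30b rests on the floor. That bound leaves out 2D replicate 2, whereas the differences of the other hairpins use all 6 arrays. Over all 2D arrays the change was 1.53 for the 5p arm and at least 1.98 for the 3p arm. MiR-574 was followed by miR-30b with -1.26, where the 3p arm was well above background on no 2D array. Next came miR-21a, from a hairpin known to be abundant in many tumours, with 0.45. The smallest differences were 0.12 for miR-31 and 0.13 for miR-199a. Hairpins with 1 arm fitted reached larger differences than miR-574, such as -9.58 for miR-376c and -8.51 for miR-467b. In both, the 3p arm was well above background on no 2D array and the 5p arm on no array. MiR-574 and miR-30b were the 2 hairpins of the 7 with 1 arm detected in 2D and the other not. MiR-574 was the single hairpin of the 7 with both arms higher in lr-ECM 3D, as the plot of these hairpins shows.

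**Figure D5:**
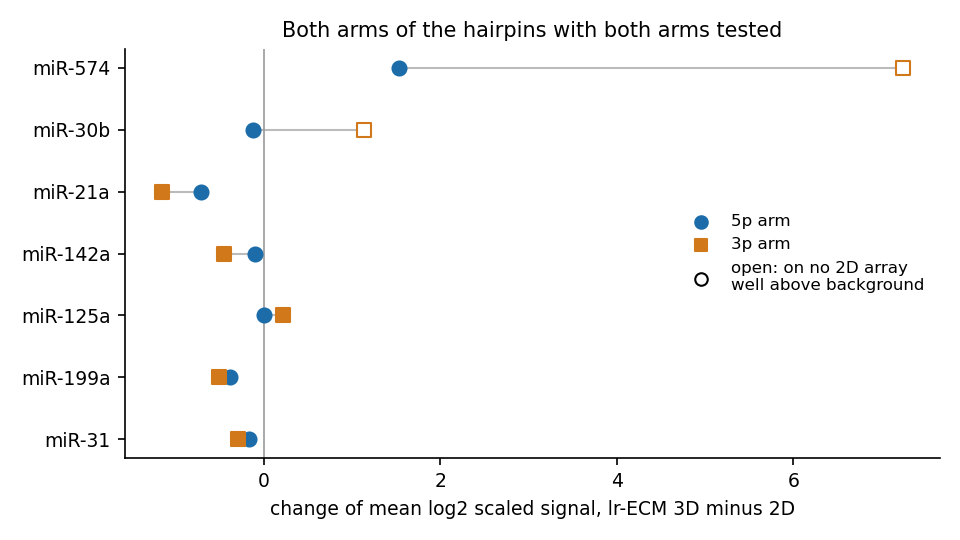
Change of the mean log2 scaled signal, lr-ECM 3D minus 2D, of the 5p arm (circles) and 3p arm (squares) of the 7 hairpins with both arms fitted, open where the arm was well above background on no 2D array. Both arms of miR-574 lie right of 0, at 1.53 and 7.24, the latter set by the floor, while the other hairpins lie between -1.15 and 1.14.

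Since the arms are rich in GU and in CA, other miRNAs with such runs were examined. The letters UGUGUG were found in 9 of the 466 matched array miRNAs (1.93%), miR-574-5p among them, and ACACAC in 4 (0.858%), miR-574-3p among them, and no miRNA held both. These are counts over mature strands as written, 5′ to 3′, and 27 of the 120 miRNAs fitted had no sequence to search. Besides miR-574, 8 miRNAs held UGUGUG and 3 held ACACAC. Of these 11, 3 were fitted, 2 of them higher in lr-ECM 3D and 1 lower, and 0 were called by limma, against 14 of 120 miRNAs (11.7%). Only fitted miRNAs with a matched sequence could enter this list, and of these 93, limma called 5 higher and 1 lower. At an unadjusted p under 0.05, limma took 2 of the 3 and the methods' t-test took 0. The median change of the 3 was 2.36 on the log2 scale, beside -0.11 over all 120 and -0.17 over the 93 with a matched sequence. It is the value of miR-669n and rests on signals below detection in 2D, since 2 of the 3, miR-669n and miR-672-5p, were well above background on no 2D array. Among the 11, 6 were well above background on no array of either culture. The 3 other matched miRNAs with ACACAC, miR-329-3p, miR-362-3p and miR-568, were among those. The search did not cover the profiles nearest to miR-574-3p: miR-467e-3p, miR-297a-3p, miR-466f-3p, miR-466g and miR-467d-3p had no matched sequence, and of the 8 other miRNAs at the floor on all 2D arrays 1 had one. The search alone could therefore not settle whether detected miRNAs besides miR-574-3p hold ACACAC. The study's qPCR primers give letters for miR-466f-3p. Its forward primer holds ACACAC, and its stem-loop primer ends in GTGTGT, the reverse complement. MiR-466f-3p was called higher in lr-ECM 3D, with a mean log2 scaled signal of 7.58 there. By these primers the letters ACACAC were not particular to miR-574-3p among detected miRNAs.

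Within these 11 miRNAs, and not among all matched sequences, the 4 with the longest stretch of letters in common with the 5p arm are shown to compare their letters and signals. Capitals mark the stretch shared with miR-574-5p.
miR-672-5p: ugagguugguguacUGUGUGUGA
miR-206-3p: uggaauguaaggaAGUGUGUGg
miR-669n: auuUGUGUGUGgaugugugu
miR-293-5p: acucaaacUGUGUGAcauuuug
MiR-672-5p shared 9 bases, was well above background on no 2D array and all lr-ECM 3D arrays, and read 5.08 on the log2 scale in lr-ECM 3D. MiR-669n shared 8 bases, was likewise detected on lr-ECM 3D arrays alone, and read 6.48 there, at least 2.33-fold above the 2D limit. MiR-206-3p, known from muscle, shared 8 bases and was well above background on 1 lr-ECM 3D array, and miR-293-5p shared 7 bases, as did 1 more of the 11, and was well above background on no array. Detection in 2D was thus seen for the 5p arm of miR-574 and not for these 4. It was not particular to that arm among miRNAs with UGUGUG. Let-7b-5p, another of the 11, was well above background on all arrays of both cultures. Its mean log2 scaled signal was 8.57 in 2D and 8.24 in lr-ECM 3D.

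The same comparison within the 11 miRNAs was made for the 3p arm. Capitals mark the stretch shared with miR-574-3p.
miR-329-3p: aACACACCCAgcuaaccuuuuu
miR-362-3p: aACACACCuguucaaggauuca
miR-568: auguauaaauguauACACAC
MiR-329-3p shared 9 bases with the 3p arm, miR-362-3p shared 7 and miR-568 shared 6, and none of the 3 was well above background on any array. The next of the 11, miR-291a-3p, shared 4 bases, as did 1 more of them, and also stayed undetected in both cultures.

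The study's text sets 3 miRNAs apart, chosen there on these same samples, as strongly induced in lr-ECM 3D but also highly expressed in 2D. They are miR-574, miR-466c, on the array as miR-466c-5p_v15.0, and miR-669n. That sentence names no arm of miR-574, and the 5p arm was taken here. MiR-574-5p was the single one of these that was well above background on any 2D array. MiR-466c-5p_v15.0 read 2.98, 5.59 and 2.84 on the log2 scale on 2D replicates 1, 2 and 3 and 5.32, 5.25 and 5.28 on the lr-ECM 3D replicates. Under the scaling used here, 2D replicate 2 was thus above all lr-ECM 3D arrays. MiR-669n read 3.12, 6.07 and 3.16 in 2D and 6.59, 6.38 and 6.46 in lr-ECM 3D, with no overlap. In all 3 miRNAs the highest scaled 2D value was that of replicate 2, where none of them was well above background. These values carry the factor of 4.43 on that array and are not the study's own normalized signals. In the deposited values replicate 2 was the lowest 2D array for miR-574-5p, at 4.49, and the other miRNAs were not compared there.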

How the data were processed

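Total RNA of LLC1 cells from 2D and lr-ECM 3D culture (3 replicates each, grouped by the sample labels) was measured on 1-colour Agilent mouse miRNA arrays (Cy3). The deposited scanner files hold linear spot intensities from the authors' run of Feature Extraction (10.7.3.1), background-subtracted but not normalized between arrays, and other columns, per the file headers detection, outlier and saturation flags. The deposited series table holds log2 values of the authors, which, judged from the values, are floored intensities in log2 with a constant added per array (largest departure 0.049). The mean of every deposited array was 1.79 in log2, so those arrays were equalised on the log2 scale.

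Control spots and outlier spots were left out, no spot of the arms was saturated, and the spots of a probe were averaged. Arrays were scaled in linear units so that the mean over 1712 miRNA probes equalled that of the 2D arrays. The signals were then floored at 1 and put in log2. This is a linear reading of the methods' scaling to control samples and differs from the log2 equalisation of the deposited values. In the deposited values the change of miR-574-5p was 2.39 in log2, against 1.53 here, and limma called it there. The probe with the highest mean stood for a miRNA, which counted as well above background where at least 50% of the probe's spots were flagged so. The detection limit of an array is its lowest probe signal well above background, and a bound compares the lr-ECM 3D mean with the mean over 2D arrays of the higher of that limit and the probe's own signal. Background calls came from lmFit and eBayes of limma 3.58.1 (R 4.3.3), two-sided with Benjamini-Hochberg adjustment, checked on simulated data. Sequences came from RefSeq (GRCm38.p6), matched by exact name.

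The arms, the lists and the rule for naming miRNAs were chosen with earlier results of these data known. The rule took both arms and all their probes, the 5 nearest profiles per arm, miRNAs sharing a seed, miRNAs with UGUGUG or ACACAC and, among these alone, the 4 with the longest stretch shared with each arm, the hairpins with the 3 largest and 2 smallest differences between arms, and the 3 miRNAs set apart in the study's text. Alternatives covered the scaling, background correction, probe summary, floor, detection rule, filter, test, deposited values, replicate block and leaving out each array.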

Additional observations from a re-analysis of the deposited data

How the results depend on the processing

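The arms of miR-574 were higher in lr-ECM 3D under every alternative run, with 0 reversals, and sizes follow in log2, lr-ECM 3D minus 2D. The change of miR-574-3p (7.24) was 7.48 and 7.02 with the 75th percentile of detected and of all probes, 8.15 without scaling, 7.75 with quantile normalization, 2.16 with normexp, 7.52 from the total gene signal, 7.00 as the mean over all probes, 3.92 with a floor at 10, 7.40 in the deposited log2 values, and 6.49 to 7.71 with each array left out. Its bound (1.98) was 2.30, 2.13, 3.34 and 1.49 under the same 4 scalings, 1.52 with normexp, 1.74 as the mean over all probes, 1.73 where all spots had to be well above background, and 1.25 (without 2D replicate 3) to 2.86 (without 2D replicate 2). The change of miR-574-5p (1.53) was 2.89 without scaling, 4.01 from the total gene signal and 2.39 in the deposited values, and 1.12 to 1.92 elsewhere, with 1.20 to 1.92 when leaving out each array. Without scaling the median of the fitted miRNAs moved to 1.24. Relative to the median of each setting the 5p arm was 1.64 higher under all scalings but quantile normalization, where it was 1.20 higher. A factor per array shifts the 5p arm and the median nearly alike, so the repeated 1.64 was fixed in advance and is no support. The difference in arm ratio (-0.94) was -0.43 with normexp, -1.73 from the total gene signal, -0.34 as the mean over all probes, and -1.24 to -0.64 when leaving out each array. Calls over all miRNAs (14) numbered 25 with the 75th percentile of all probes, 27 without scaling, 26 from the total gene signal, 27 in the deposited values, 32 with no filter and 0 with limma where all 6 arrays had to be well above background, which leaves miR-574 out (7 of these 48 at an unadjusted p under 0.05 by limma and 2 by the methods' t-test), and 12 to 32 (without 2D replicate 2) when leaving out each array. MiR-574-3p was called in 21 of 22 alternatives and miR-574-5p in 9 of 22, the cause of which was not tested. With the replicate number as a block the changes were 7.24 and 1.53 and 12 miRNAs were called, and the deviations of same-numbered arrays correlated at -0.32, -0.37 and 0.16, so the numbers were not taken to pair the samples. A slide block was not run, since 0 of 2 slides hold both cultures.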
